A study of Mus musculus with 20 samples.

Results

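The neurotrophins and their receptors were examined as 6 genes: the ligands Bdnf and Ntf3, the Trk receptors Ntrk2 and Ntrk3, and the further receptors Ngfr and Sort1. Every probe set that the annotation of the array pairs with 1 of these symbols was taken. For 5 of the 6 genes this gave 24 probe sets, namely 2 for Bdnf, 8 for Ntrk2, 8 for Ntrk3, 3 for Ngfr and 3 for Sort1, out of 34945 probe sets with a single symbol that stand for 18193 genes. The expression of Ntf3 is not analysed here.

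Whole-brain RNA was profiled from WT and Hdac4KO neonates at P3 (postnatal day 3), with 10 arrays per genotype and, by the labels, 5 per sex in each. Pups of both genotypes were untreated. The knock-out colony was kept by crossing heterozygous males back to B6CBAF1/OlaHsd females, and homozygotes were bred by intercrosses. Both copies of Hdac4 were of the knock-out allele in Hdac4KO pups. Hdac4 encodes a class IIa histone deacetylase that holds transcription factors such as MEF2 in check, and the comparison asks which transcripts differ in a brain that lacks it from the germline on, so that a direct effect and a later one cannot be told apart. The arrays are of separate brains by the study's methods, and their litters are not given in the sources used here.

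Neurotrophins are secreted growth factors that keep neurons alive and shape their axons, dendrites and synapses. BDNF binds the receptor kinase TrkB (Ntrk2) and NT-3 (Ntf3) binds TrkC (Ntrk3). The p75 receptor (Ngfr) binds all neurotrophins and, together with sortilin (Sort1), their uncleaved precursors. In the brain Bdnf is known as an activity-regulated gene with several promoters, and both Trk genes also make truncated receptors without the kinase, which for TrkB prevail in astrocytes.

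Values are deposited log2 signals, with medians per array from 6.26 to 6.32. A probe set was called different at an adjusted p under 0.05 from limma, adjusted over all 45037 probe sets tested. Levels of different probe sets share no common scale and are not set against each other, and only shifts between the genotypes are compared across probe sets. In whole brain, fewer cells of a type and less RNA per cell cannot be told apart.

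All 3 probe sets of Hdac4 were called lower in Hdac4KO arrays, with log2 fold changes of −1.39, −1.19 and −0.46. At the first, the lowest WT array (7.54, replicate 8) and the highest Hdac4KO array (7.43, replicate 10) lay close together. The other Hdac4KO arrays ran from 6.02 to 6.59 there, so that replicate 10 stood apart from its own group. Hdac4KO replicate 10 also had the highest 3′ minus 5′ signal of the actin controls (0.609) and the lowest array median (6.26). The cause was not tested, and its genotype label was kept as given. Sex-linked genes went against the sex label in 3 arrays (WT replicates 5 and 9, Hdac4KO replicate 10). Leaving out WT replicate 8 and Hdac4KO replicate 10, or these 3, gave no call at any of the 24 probe sets of the neurotrophin and receptor genes. The part of Hdac4 that the allele lacks was not looked up, and a probe set outside it would check nothing.

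None of the 24 probe sets passed the test: 0 were higher and 0 were lower in Hdac4KO brains, where 2.06% of all probe sets were called (1.05% higher and 1.01% lower). At an unadjusted p under 0.05 from limma there were 3 higher (Ntrk2 1458622_at, Ntrk2 1435196_at and Sort1 1423362_at) and 1 lower (Ntrk2 1420837_at), and this unadjusted threshold was met by 18% of all probe sets. The methods' t-test, after Benjamini-Hochberg adjustment, called 1 of the 24, Ntrk2 1458622_at, and 2.22% of all probe sets. The log2 fold changes were above 0 at 14 and below 0 at 10, with a median of 0.02 over the 24 and 0.00 over all probe sets. WT and Hdac4KO arrays overlapped at all 24, and over the whole array the groups were apart at 0.0777% of probe sets. The 95% interval of the difference lay within 1.2-fold either way at 21 of the 24 and at 84.8% of all probe sets. The other 3 were Ntrk2 1420837_at, Ntrk3 1447723_at and Ngfr 1421241_at. Of the 24, 16 lay above the median signal of the array in at least 10 arrays and 8 did not, which are called dim below.

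**Figure D1:**
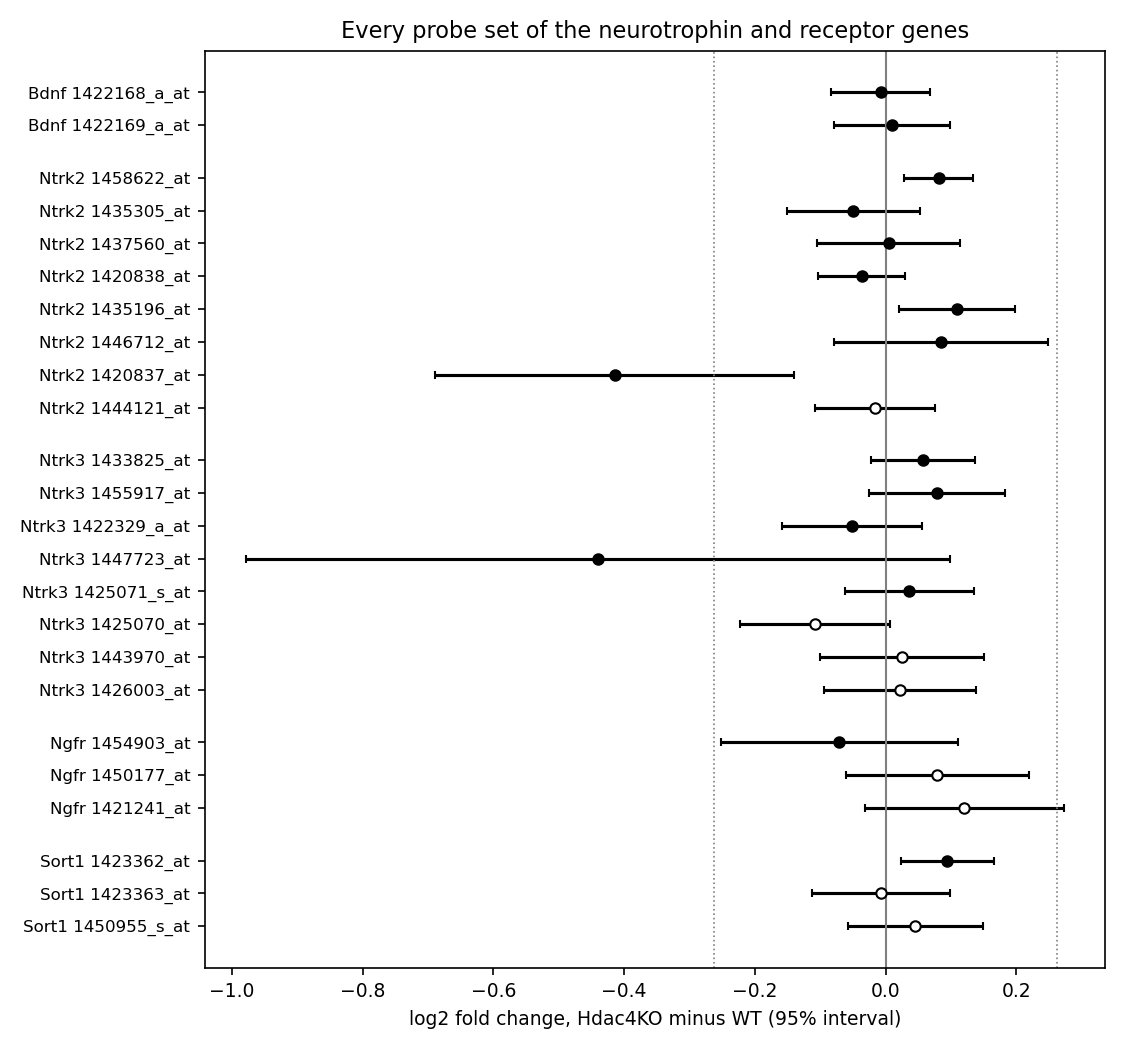
Log2 fold change (Hdac4KO minus WT) of each probe set of Bdnf, Ntrk2, Ntrk3, Ngfr and Sort1, with its 95% interval from limma, brightest probe set of a gene first. Filled points were not dim, open points were, and dotted lines mark 1.2-fold either way. A total of 21 intervals lie between the dotted lines, and the widest are those of Ntrk2 1420837_at and Ntrk3 1447723_at.

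Bdnf, the ligand of TrkB, had like signals in both genotypes at both of its probe sets, which carry the suffix for probes shared by several transcripts of 1 gene. At 1422168_a_at the log2 signals of the WT arrays ran from 8.10 over a median of 8.21 to 8.31, and those of the Hdac4KO arrays from 8.02 over 8.21 to 8.35. The WT range lay inside that of the Hdac4KO arrays, of which 5 lay above and 5 below the WT mean. The means were 8.22 ± 0.06 (SD, n = 10) and 8.21 ± 0.09 (SD, n = 10), a difference of −0.01 log2 units (SE 0.04, adjusted p = 0.945 from limma), and the 95% interval of the difference ran from −5.65% to 4.85%. At 1422169_a_at the range was 7.51 to 7.77 in WT and 7.45 to 7.76 in Hdac4KO brains, with means of 7.59 ± 0.08 (SD, n = 10) and 7.60 ± 0.11 (SD, n = 10). They differed by 0.01 log2 units (SE 0.04, adjusted p = 0.937) with an interval from −5.27% to 7.09%. Single Bdnf transcripts were not resolved by either probe set.

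**Figure D2:**
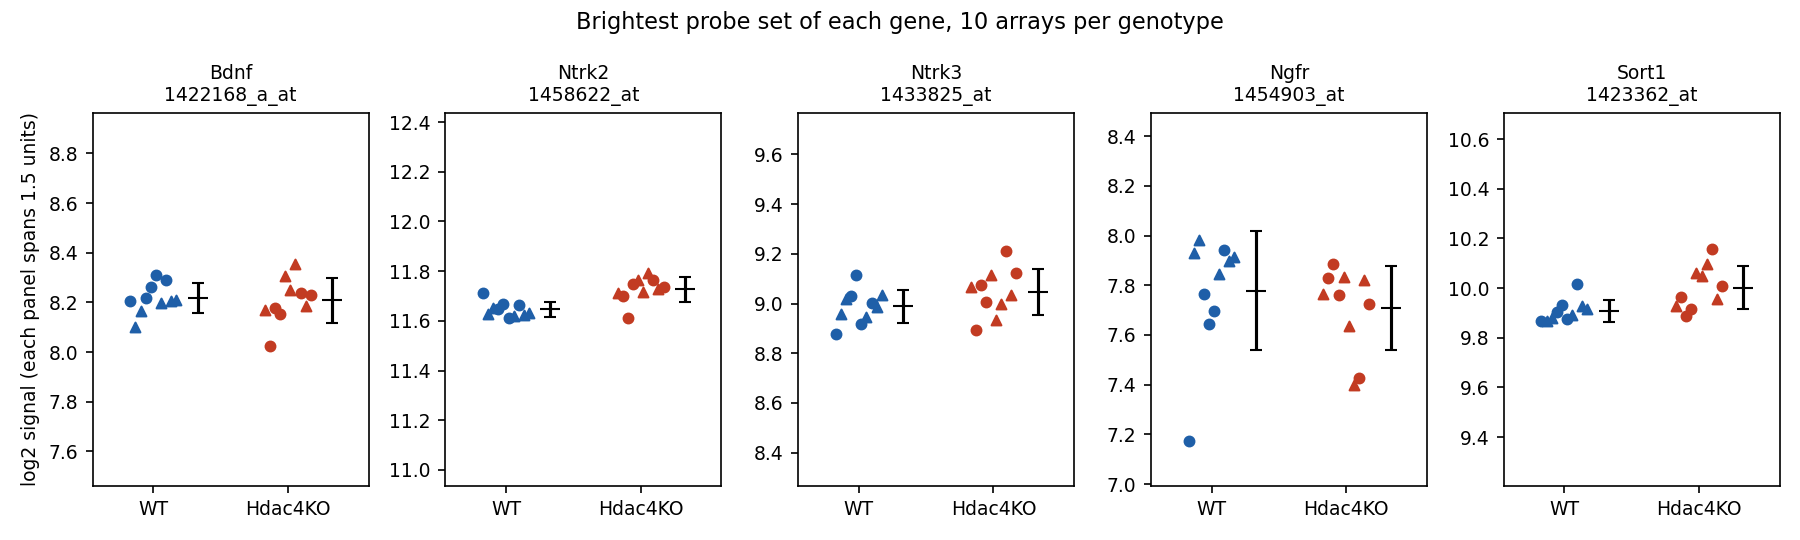
Log2 signal of the brightest probe set of each gene in the 20 arrays (blue for WT and red for Hdac4KO, with circles for males and triangles for females by label), with the mean ± SD of 10 arrays as black bars. All panels span the same number of log2 units, and the groups overlap in each. The WT array at 7.17 for Ngfr lies below all others of that panel.

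Bdnf also gave the smallest unadjusted p among the 24 for a difference between the sexes in the genotype contrast, at 1422168_a_at. By the labels, the means of WT and Hdac4KO males were 8.26 ± 0.05 and 8.16 ± 0.09, and those of WT and Hdac4KO females 8.18 ± 0.04 and 8.25 ± 0.08 (SD, n = 5 each). The log2 fold change was −0.09 in males and 0.08 in females, and their difference of 0.17 (SE 0.07) did not pass the test (p = 0.0201, adjusted p = 0.917 from limma's interaction term). Without the 3 arrays at odds with their sex label the difference was 0.19 (adjusted p = 0.554). The interaction passed the threshold at 0 of the 24 probe sets and at 0% of all probe sets, and the 24 gave no call within males (0.0377% of all probe sets called) or within females (0.04%).

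TrkB, the receptor kinase for BDNF, is encoded by Ntrk2. At its brightest probe set, 1458622_at, the WT arrays ran from 11.61 over a median of 11.64 to 11.71 and the Hdac4KO arrays from 11.61 over 11.73 to 11.79. The Hdac4KO arrays thus tended to the upper side, with 9 of 10 above the WT mean and 7 above every WT array, while replicate 3 was as low as the lowest WT array. The means were 11.65 ± 0.03 (SD, n = 10) and 11.73 ± 0.05 (SD, n = 10), which is 5.80% more in Hdac4KO brains (95% interval 2.02% to 9.72%, adjusted p = 0.0898 from limma). Over 32 alternative settings the adjusted p lay between 0.0313 and 0.180 and was under the threshold in 5 of them.

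At probe set 1420837_at of Ntrk2 the Hdac4KO arrays lay on the lower side. WT arrays ran from 6.08 over a median of 6.51 to 6.82 and Hdac4KO arrays from 5.44 over 6.14 to 6.44, so that all 10 Hdac4KO arrays lay below the WT mean and 5 below every WT array. This probe set lay above the array median in 10 arrays, the fewest for which a probe set was not called dim. Its WT median was above the array medians (6.26 to 6.32) and its Hdac4KO median was below them. The means were 6.46 ± 0.27 (SD, n = 10) and 6.05 ± 0.36 (SD, n = 10), a difference of −0.41 log2 units (SE 0.13) or −25.0% (95% interval −38.0% to −9.26%, adjusted p = 0.0976 from limma). RNA integrity, read as 3′ minus 5′ signal of control probe sets for actin and Gapdh, gave 0.191 ± 0.031 (SD, n = 10) for WT arrays and 0.216 ± 0.030 (SD, n = 10) for Hdac4KO arrays (p = 0.0818 by a two-sided permutation test). For actin alone it was 0.480 ± 0.039 and 0.520 ± 0.045 (p = 0.0475 by that permutation test), and for Gapdh alone −0.0989 ± 0.0310 and −0.0890 ± 0.0306 (p = 0.476). With that signal as a covariate the log2 fold change of 1420837_at was −0.30 (adjusted p = 0.326), and the part of RNA integrity in the difference was not tested further.

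The other 6 probe sets of Ntrk2 had log2 fold changes between −0.05 and 0.11. At 1435196_at the arrays ran from 9.30 over 9.47 to 9.64 in WT and from 9.43 over 9.55 to 9.73 in Hdac4KO brains. Most Hdac4KO arrays lay on the upper side there, 9 of 10 above the WT mean, and the difference was 7.83% (95% interval 1.40% to 14.7%, adjusted p = 0.174 from limma). At 1435305_at the values of 8 Hdac4KO arrays fell among or near the WT arrays (11.07 to 11.22), while replicates 9 and 10 had 10.89 and 10.80, with a log2 fold change of −0.05 (adjusted p = 0.651). The same arrays were also the lowest of their group at 1437560_at, both below every WT array (10.12 to 10.38), and the log2 fold change there was 0.00 (adjusted p = 0.978). For the other 3 the log2 fold changes were −0.04 at 1420838_at (adjusted p = 0.597), 0.09 at 1446712_at (adjusted p = 0.620) and −0.02 at the dim 1444121_at (adjusted p = 0.897).

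**Figure D3:**
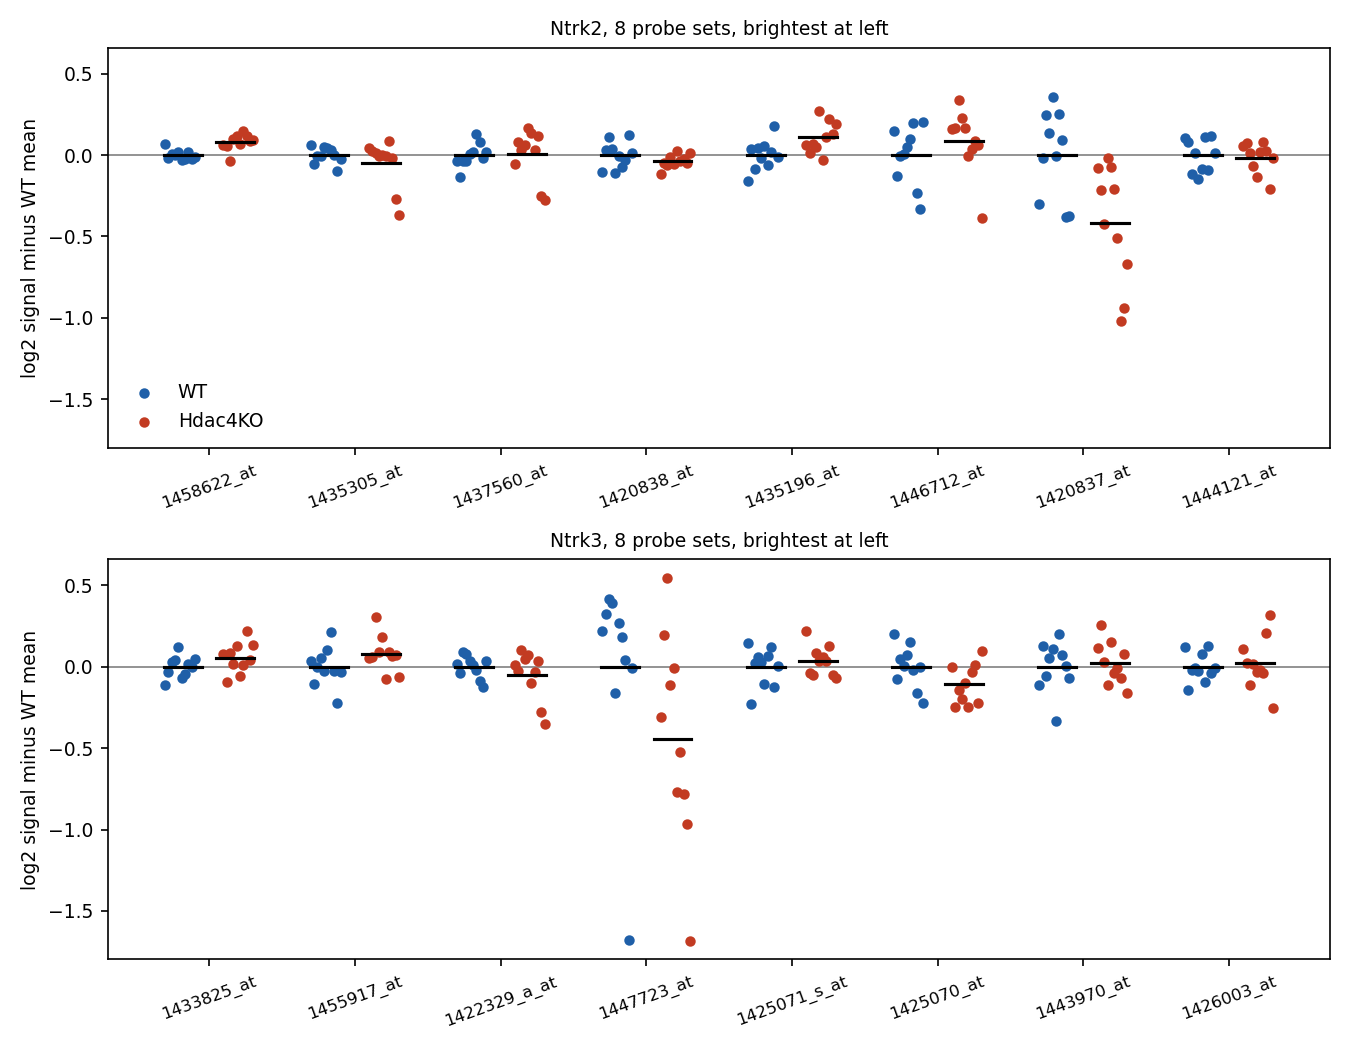
Log2 signal of each array minus the WT mean of the same probe set, for the 8 probe sets of Ntrk2 (top) and the 8 of Ntrk3 (bottom), brightest at left. Points are arrays (blue, WT; red, Hdac4KO) and black bars are group means. Most bars lie within 0.11 of 0, and those of Ntrk2 1420837_at (−0.41) and Ntrk3 1447723_at (−0.44) lie lowest.

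Whether probe sets of 1 gene differ in their response was tested on the difference between each probe set and the brightest of its gene, within each array. For the 5 genes this gave 19 such differences, and 1 of them passed at an adjusted p over all 16752 differences on the array, of which 5.05% were called. This was Ntrk2 1420837_at, which moved by −0.50 on the log2 scale against 1458622_at (two-sided permutation test, p = 0.0030; adjusted p = 0.0386 from limma). The call was kept in 9 of 20 fits that each left out 1 array, over which the adjusted p ran from 0.0263 to 0.0728 and the value from −0.54 to −0.42. It was lost without WT replicate 8 and Hdac4KO replicate 10, whose Hdac4 signals lay closest to the other genotype (−0.46, adjusted p = 0.0961), without the 3 arrays at odds with their sex label (−0.47, adjusted p = 0.0863), and with the 3′ minus 5′ signal as a covariate (−0.39, adjusted p = 0.174). At an unadjusted p under 0.05 from limma there were 4 of the 19, a threshold met by 21.7% of all 16752 differences. The transcript that each probe set reads was not looked up here.

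TrkC, the receptor kinase for NT-3, is encoded by Ntrk3, and none of its 8 probe sets was called. At the brightest, 1433825_at, WT arrays ran from 8.88 over a median of 8.996 to 9.11 and Hdac4KO arrays from 8.89 over 9.05 to 9.21. The groups covered much the same range, with 3 Hdac4KO arrays above every WT array. The means were 8.99 ± 0.07 (SD, n = 10) and 9.05 ± 0.09 (SD, n = 10), with a difference of 0.06 log2 units (SE 0.04, adjusted p = 0.459 from limma) and an interval from −1.52% to 9.96%.

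The widest spread of the 24 was that of Ntrk3 1447723_at, with WT arrays from 6.31 over 8.19 to 8.41 and Hdac4KO arrays from 6.30 over 7.57 to 8.54. WT replicate 9 and Hdac4KO replicate 10 stood far below the rest, and the genotypes overlapped over nearly the whole range only through WT replicate 9. The next lowest WT array was at 7.83, above the Hdac4KO median. The means were 7.99 ± 0.62 (SD, n = 10) and 7.55 ± 0.65 (SD, n = 10), and the interval of the difference, −49.3% to 7.03%, was too wide to tell a large fall from none (adjusted p = 0.390). Without WT replicate 9 the log2 fold change was −0.63 (adjusted p = 0.0946 from limma), the smallest adjusted p of 32 alternative settings. Without WT replicates 5 and 9 and Hdac4KO replicate 10, the difference from 1433825_at was −0.60 (adjusted p = 0.0738 from limma) in place of −0.50 (adjusted p = 0.292). The other 6 probe sets of Ntrk3 lay between −0.11 and 0.08, with adjusted p between 0.307 and 0.889, and 1 of them, 1425071_s_at, carries the suffix for probes that may be shared with another gene.

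Ngfr encodes p75, the receptor for all neurotrophins and their precursors. At 1454903_at, its only probe set that was not dim, WT arrays ran from 7.17 over a median of 7.87 to 7.98 and Hdac4KO arrays from 7.40 over 7.76 to 7.89. All Hdac4KO arrays lay inside the WT range, the lower end of which was set by WT replicate 1. The means were 7.78 ± 0.24 (SD, n = 10) and 7.71 ± 0.17 (SD, n = 10), a difference of −0.07 log2 units (SE 0.09, adjusted p = 0.731 from limma) with an interval from −16.0% to 7.96%. With each array left out in turn the log2 fold change ran from −0.14 without WT replicate 1 (adjusted p = 0.278) to −0.04 without Hdac4KO replicate 7 (adjusted p = 0.882). At the dim probe sets 1450177_at and 1421241_at it was 0.08 (adjusted p = 0.584) and 0.12 (adjusted p = 0.409).

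By sex label, Ngfr 1454903_at was at 7.64 ± 0.29 and 7.73 ± 0.18 in WT and Hdac4KO males, and at 7.91 ± 0.05 and 7.69 ± 0.18 in WT and Hdac4KO females (SD, n = 5 each). The contrast was 0.08 in males and −0.22 in females, and the difference between them did not pass the test (adjusted p = 0.917 from limma, 0.688 without the 3 arrays at odds with their label). WT replicate 1, at 7.17 with the next lowest WT array at 7.64, is a male by label and was kept in both fits. The male contrast without it was not computed.

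Sort1 encodes sortilin, a sorting receptor that directs BDNF within the cell and joins p75 at the surface. At its brightest probe set, 1423362_at, WT arrays ran from 9.87 over a median of 9.90 to 10.02 and Hdac4KO arrays from 9.89 over 9.99 to 10.16. The Hdac4KO arrays lay mostly on the upper side, 9 of 10 above the WT mean and 4 above every WT array. The means were 9.908 ± 0.046 (SD, n = 10) and 10.002 ± 0.087 (SD, n = 10), which is 6.76% more (95% interval 1.65% to 12.1%, adjusted p = 0.140 from limma). Its dim probe sets 1423363_at and 1450955_s_at had log2 fold changes of −0.01 (adjusted p = 0.966) and 0.05 (adjusted p = 0.689), and the second carries the suffix for probes that may be shared with another gene.

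As a description of how the 5 genes varied among arrays, each array's deviation from the mean of its genotype was correlated over the 20 arrays, which share normalization. Among the 24, the highest Pearson correlation between different genes was that of Ntrk2 1435305_at with Ntrk3 1422329_a_at (r = 0.82), and Hdac4KO replicates 9 and 10 were the lowest of their group at both. Bdnf 1422169_a_at and Sort1 1423362_at had r = 0.68, and WT replicate 8 was the highest of its group at both. Ntrk2 1458622_at and Ngfr 1454903_at had r = −0.61. In that pair WT replicate 1 was the highest of its group for Ntrk2 and the lowest for Ngfr. Hdac4KO replicate 3 was the lowest of its group for Ntrk2 and the highest for Ngfr. These correlations were not recomputed without such arrays.

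Over 11578 genes above the array median, the closest to Bdnf 1422168_a_at were Hs2st1 (r = 0.87), Kpna6 (r = 0.85) and Pkp4 (r = 0.84). Without the 2 arrays farthest from the median of the Bdnf probe set these became 0.82, 0.84 and 0.78. For Ntrk2 1458622_at they were Sybu (r = 0.83, and 0.79 without 2 arrays chosen likewise), Ptpro (0.80 and 0.57) and Ptger3 (0.78 and 0.69). Ntrk3 1433825_at was closest to Etfbkmt (0.78 and 0.62), Irs4 (0.77 and 0.63) and Atxn7l3 (0.77 and 0.65). Sort1 1423362_at was closest to Rnf14 (0.89 and 0.83), Chgb (0.87 and 0.84) and Atp6ap2 (0.87 and 0.84). For Ngfr 1454903_at they were Sncg (0.88 and 0.68), Slc6a5 (0.88 and 0.74) and Ebf3 (0.87 and 0.63), and there Spearman's rho was 0.51, 0.54 and 0.71, with WT replicate 1 apart from the other arrays.

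The promoters bear on the question since Hdac4 acts on MEF2, and Bdnf is known to respond to CREB. RefSeq windows of 300 bases around the start site (GRCm38.p6) were at hand for 11 starts: 7 of Bdnf, 2 of Ntf3, 1 of Ntrk2 and 1 of Ngfr. On both strands, the MEF2 motif was found in 0 of the 11 (3.19% of 32851 windows of that length held it) and the full CRE, TGACGTCA, in 0 (1.79%). The shorter site TGACG, which is also a piece of the full CRE, was found in 1 of the 11 (20.8% of all windows). That window, of Bdnf, is printed as the 1 with a match, on the plus strand of chr2:109692186-109692485, with the shorter site, read as CGTCA on this strand and starting at position −35 from the start site, in capitals.
Bdnf window: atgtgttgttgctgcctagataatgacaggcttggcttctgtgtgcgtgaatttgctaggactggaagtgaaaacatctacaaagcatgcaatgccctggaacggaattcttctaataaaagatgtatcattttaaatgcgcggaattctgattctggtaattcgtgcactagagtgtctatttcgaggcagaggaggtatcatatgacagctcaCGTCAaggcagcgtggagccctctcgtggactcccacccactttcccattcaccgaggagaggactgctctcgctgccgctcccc
A match is no evidence of binding, and the share of matches is set here beside that of all windows only as a description.

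Other genes of the pathway were taken at their brightest probe set, from lists drawn up with earlier results of these arrays known. Of 116 measured genes, 8 were higher and 2 lower in Hdac4KO brains by limma, where 1.96% of all genes were called (1.45% higher and 0.517% lower). The median log2 fold change was 0.04 over the 116 and 0.01 over all genes. The counts moved with the setting, since leaving out 1 array moved the count to between 2 and 10 higher and between 1 and 2 lower, and with the 3′ minus 5′ signal as a covariate 0 were higher and 1 was lower. The calls over all probe sets moved as well, from 474 higher and 453 lower to 23 and 20 with that covariate.

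No call was made among further ligands and receptors or among the proteases that cut the precursors. Ntf5, a further ligand of TrkB whose probe set was dim, showed a log2 fold change of −0.02 (adjusted p = 0.878 from limma), and the receptor with the smallest p of 8 measured was Sorcs2, a relative of sortilin, at 0.07 (adjusted p = 0.343). Of 11 proteases and regulators, Pcsk6, a proprotein convertase, came closest at 0.14 (adjusted p = 0.116).

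Among 33 adaptors and enzymes that act on Trk receptors, 2 were higher and 1 was lower, with a median of 0.03. Of all genes, 1.45% were higher and 0.517% lower. Map2k5, which encodes the kinase MEK5 of the ERK5 pathway, rose by 0.16 log2 units (adjusted p = 0.0427 from limma), between means of 8.79 ± 0.07 and 8.95 ± 0.10 (SD, n = 10 each), with 8 of 10 Hdac4KO arrays above every WT array. Rapgef1, an exchange factor for Rap1, rose by 0.11 (adjusted p = 0.0474), and Crkl, the adaptor that binds it, fell by 0.18 (adjusted p = 0.0497), with all 10 Hdac4KO arrays below the WT mean. Among 26 proteins that act with p75, 1 was called, beside 1.96% of all genes. This was Mapk8, which encodes the kinase JNK1 and rose by 0.12 (adjusted p = 0.0486 from limma). Other probe sets of these genes were not called, with log2 fold changes of −0.03 at 1 of Rapgef1 (adjusted p = 0.672), −0.12 to −0.06 at 3 of Crkl (adjusted p from 0.376), 0.05 to 0.15 at 3 of Map2k5 (from 0.0566) and −0.05 to 0.10 at 4 of Mapk8 (from 0.157). These 4 calls lay close to the threshold, and each was made in 10 to 14 of 32 alternative settings.

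Of 19 genes known to rise after BDNF, 3 were higher and 0 lower, beside 1.45% and 0.517% of all genes. The median log2 fold change was 0.10, the highest of the 7 pathway lists. As the lists were drawn up with earlier results of these arrays known, neither the count nor this ranking is a test of a response to BDNF. The 3 called genes encode immediate-early transcription factors, which also respond to many other stimuli. Egr1 ran from 8.91 over a median of 9.27 to 9.67 in WT and from 9.40 over 9.71 to 9.90 in Hdac4KO brains. Its arrays were shifted upwards as a group, all 10 above the WT mean and 6 above every WT array, with a difference of 0.41 log2 units (SE 0.08, adjusted p = 0.0162 from limma). Fos ran from 7.73 over 7.93 to 8.22 in WT and from 8.07 over 8.21 to 8.37 in Hdac4KO brains, with all 10 above the WT mean, and rose by 0.26 (SE 0.05, adjusted p = 0.0203). Egr2 rose by 0.35 (adjusted p = 0.0337), while its second probe set had 0.19 (adjusted p = 0.147). Both were dim, and Egr2 was called in 16 of 31 alternative settings. With the 3′ minus 5′ signal as a covariate the adjusted p was 0.0823 for Egr1 and 0.0986 for Fos, and both were called in the other 31 of 32 alternative settings.

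Of 18 carriers of Trk receptors and BDNF granules, 2 were higher and 1 was lower, beside 1.45% and 0.517% of all genes. Kif1a, a kinesin that moves dense-core vesicles, ran from 9.10 over 9.39 to 9.49 in WT and from 8.71 over 8.83 to 9.07 in Hdac4KO brains at 1450108_at. The genotypes did not overlap there, and the difference of −0.51 log2 units (SE 0.05, adjusted p = 5.28e-06 from limma) was called in all 32 alternative settings. The lowest WT array was replicate 8 and the highest Hdac4KO array replicate 10, the same arrays as at the first probe set of Hdac4. The other probe set of Kif1a, 1421053_at, had 0.14 (adjusted p = 0.109), so that the 2 differed in sign. Kif1a lies on chromosome 1 with Hdac4, with 10 measured genes between them, whereas Bdnf (2), Sort1 (3), Ntrk3 (7), Ngfr (11) and Ntrk2 (13) lie on other chromosomes, and the part of that neighbourhood in the difference was not tested. Sytl2, a synaptotagmin-like protein that binds the vesicle protein Rab27, rose by 0.28 (adjusted p = 0.0408) and Dync1i1, a chain of the dynein motor, by 0.12 (adjusted p = 0.0495), and these calls were made in 12 and 9 of 32 alternative settings.

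**Figure D4:**
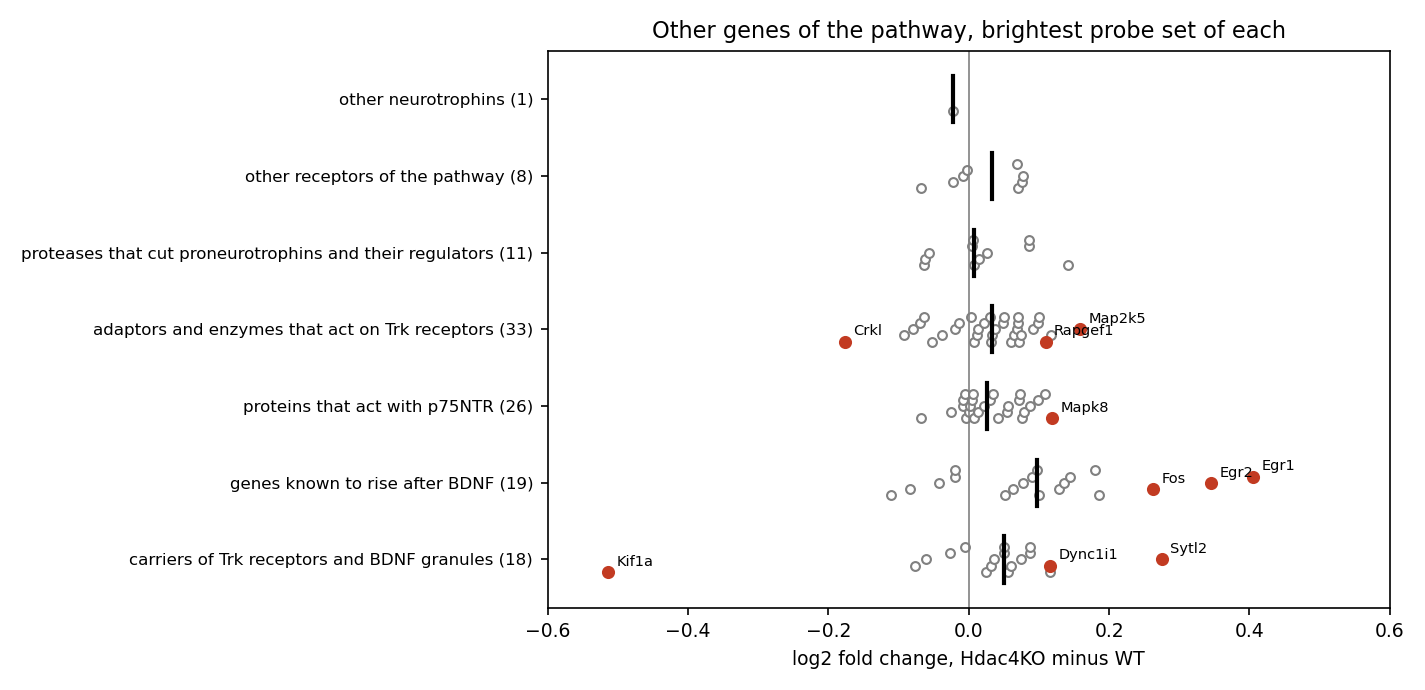
Log2 fold change (Hdac4KO minus WT) of the brightest probe set of each of 116 other genes of the pathway, by list, with the number of measured genes in brackets. Filled red points passed the test at an adjusted p under 0.05 and carry their names, open grey points did not, and black bars are list medians. The list of genes known to rise after BDNF has the highest median (0.10), and Kif1a lies lowest (−0.51). The lists were drawn up with earlier results of these arrays known.

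Over all lists of cell type markers, 4 of 96 measured genes were called (4.17%, beside 1.96% of all genes), 2 higher and 2 lower. Of 11 neuron markers 1 was called, Nefl at −0.28 (adjusted p = 0.0427 from limma), and the mean level of the list was 12.1 to 12.2 in both groups. Of 12 markers of astrocytes and radial glia, which carry truncated TrkB, 0 were called (median log2 fold change −0.02, mean level 10.5 to 10.8 in WT and 10.6 to 10.8 in Hdac4KO brains). For cholinergic neurons, a known site of p75, 0 of 7 were called (0.02), and likewise 0 of 10 for the meninges (−0.08, mean level 8.92 to 9.26 in WT and 8.85 to 9.13 in Hdac4KO brains) and 0 of 10 for cerebellar neurons (−0.08, 8.66 to 9.59 and 9.11 to 9.64). The lists of 9 microglia markers (median 0.13, mean level 7.21 to 7.497 in WT and 7.28 to 7.67 in Hdac4KO brains) and 8 choroid plexus markers (median −0.12, 7.79 to 8.14 and 7.72 to 7.95) had 1 call each, Tmem119 higher by 0.26 and Ttr at −0.14. The log2 fold change was above 0 at 8 of the 9 microglia markers, and below 0 at 7 of the 8 of the choroid plexus and 8 of the 10 of the meninges. Of 5 Schwann cell markers, 1 was called, Egr2, which the BDNF list holds too. No call was made among 10 oligodendrocyte, 11 endothelial and 3 erythroid markers, and the part of cell makeup in any of these differences was not tested.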

How the data were processed

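Total RNA (200 ng) of whole P3 brains was labelled with the GeneChip 3′ IVT Express kit and hybridized to Affymetrix mouse genome arrays by the authors, who excluded chips of low quality. Per probe set and array, the authors deposited a log2 signal, normalized in a way not given in the sources used here. No further scaling was applied. Precision is limited by the number of arrays.

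After removal of 64 controls, 45037 probe sets were tested, of which 932 carry several symbols and 9160 none. WT and Hdac4KO arrays were compared in limma 3.58.1 (R 4.3.3; lmFit, eBayes), without a covariate, in place of the 2-tailed t-test of the methods, and adjusted by Benjamini-Hochberg over all probe sets. The sexes were compared through an interaction term in a model of 4 groups. Permutation tests used 100000 resamples (scipy 1.17.1). The fits were tested on simulated data.

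The members and the lists were chosen with earlier results of these data known. Named are all members at each probe set, every called gene of a pathway list (otherwise the smallest p), Hdac4, called markers, and the 3 genes most alike each member by Pearson's r. Alternatives were other tests, covariates, scalings, filters, the replicate number as a block, and arrays left out; leaving out arrays by their Hdac4 or sex-linked signals was added after seeing the data, as were the further fits of differences within a gene and the sex contrast without 3 arrays.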

Additional observations from a re-analysis of the deposited data

Results flagged for a closer look

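Of 68 groups of 10 arrays examined, 7 held an array whose gap to the nearest other array exceeded Dixon's 95% critical value as a share of the range of the group, where chance gives about 1 in 20. At Bdnf 1422169_a_at the highest WT value was that of replicate 8 (7.768), and the same array was highest at Sort1 1423362_at (10.02). At Ngfr 1454903_at WT replicate 1 was lowest (7.172). At Ntrk2 1446712_at Hdac4KO replicate 10 was lowest (5.998), and at Ntrk3 1447723_at it was WT replicate 9 (6.308). Hdac4KO replicate 3 was lowest at Ntrk2 1458622_at (11.61) and at Dync1i1 1416361_a_at (10.73).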

How the results depend on the processing

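Under 32 alternative settings, 760 values of the 24 probe sets were recomputed. Of these 5 passed the threshold, all at Ntrk2 1458622_at, so that the count of probe sets called higher was 1 by the methods' t-test, by Welch's test, with dim probe sets left out, with trend and robust eBayes and without Hdac4KO replicate 3 (0 to 1 over the fits that left out each array in turn), and the count called lower was 0 throughout. The sign changed in 24 of the 760, at 7 probe sets that were called in none of them. The number of arrays limits how small a difference can be told from none, and at the 8 dim probe sets the signal over background does so too.

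Of the other genes of the pathway, 8 were higher and 2 lower. Over all probe sets the calls were 474 higher and 453 lower, and the counts over all probe sets are given in brackets below. The higher count of pathway genes was 5 with sex as a covariate (439), 0 with the 3′ minus 5′ signal as a covariate (23), 4 after median centring (374), 2 without WT replicate 8 and Hdac4KO replicate 10 (157), 2 without WT replicates 5 and 9 and Hdac4KO replicate 10 (174), and 2 to 10 with each array left out in turn (184 to 991). Its highest value was 11, with dim probe sets left out (996 of 22603 tested) and with the smallest p of each gene in place of the brightest probe set. The lower count was 1 by the methods' t-test, by Welch's test, with sex as a covariate, with the 3′ minus 5′ covariate, after quantile normalization and without either set of arrays, 5 with the smallest p of each gene, and 1 to 2 with each array left out in turn (167 to 724). The cause was not tested.

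WT and Hdac4KO arrays share replicate numbers, but for 1 of 10 numbers only was the correlation of the paired deviations above 0.1. With the replicate number as a block, 0 of the 24 probe sets were called, and 4 pathway genes were higher and 2 lower. Over all probe sets the block gave 308 higher and 640 lower.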
